A study of Glycine max with 8 samples.

Results

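The 2 libraries that carried FLAG-SNAP2 were set against the 6 libraries of FLAG-SNAP1, FLAG-SNAP3 and FLAG-SNAP4 in a ChIP-seq series of soybean root nodules. A site was a stretch of overlapping peaks merged over the libraries, and 1279 sites held a peak in all 8 of them. Within each library every peak was given the percentile of its fold enrichment among all peaks of that library, and a site took the percentile of its strongest peak. A site counted as higher, or lower, with FLAG-SNAP2 when both FLAG-SNAP2 libraries lay above, or below, all 6 others. The rule found 142 higher sites (11.1% of the 1279) and 41 lower sites (3.21%). These percentiles chose the sites, so they are given below as a description, without a test.

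SNAP1 to SNAP4 are NAC transcription factors (TFs), a plant-specific family whose members bind DNA through a conserved N-terminal domain and often act in ageing and stress responses. A root nodule is the organ in which the legume houses nitrogen-fixing rhizobia, and its lifetime is shortened when nitrate is plentiful in the soil. ChIP-seq crosslinks proteins to DNA, pulls down one protein with an antibody and sequences the DNA that comes with it, so that a peak marks a stretch of the genome that was recovered more often than its surroundings. Besides genes for proteins, which RNA polymerase II transcribes, chromatin pulled down this way holds tRNA genes, short genes transcribed by RNA polymerase III from promoter elements inside the gene.

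Each of the 4 TFs had 2 replicate libraries, prepared from transgenic hairy roots with nodules and pulled down with a FLAG antibody. By the methods of the study, the coding sequence of SNAP1, SNAP2, SNAP3 or SNAP4 from the cultivar Williams 82 was fused to FLAG, placed under the soybean pM4 promoter and brought in with Agrobacterium strain K599, so the tagged TF was made from a transgene. The labels give the genotype of the 4 groups as SNAP1 mutant, SNAP2 mutant, SNAP3 mutant and SNAP4 mutant, which does not spell out the transgene, and no nitrogen level, plant age or untagged control is named for them. The FLAG-SNAP2 libraries held 7937 and 9332 peaks, and the 6 others 3628 to 9052. FLAG-SNAP3 replicate 2 had the fewest peaks (3628) and the largest share of them at tRNA genes (15.4%, against 7.1 to 9.39% in the other 7 libraries), and it stood apart in that share. With the 3628 strongest peaks of every library the 6 others spanned 14.1 to 17.4%, and this library lay inside that range. Leaving it out gave 176 higher and 70 lower sites among 1600 with a peak in the 7 remaining libraries.

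FLAG-SNAP2 had more higher than lower sites, and so did FLAG-SNAP1 with 135 higher (10.6%) and 30 lower sites (2.35%). FLAG-SNAP3 had 66 higher (5.16%) and 194 lower sites (15.2%), and FLAG-SNAP4 had 60 (4.69%) and 133 (10.4%). The split moved with the scale. The percentile among all peaks depends on how long a library's peak list is, and the median percentile of the 1279 sites ran from 76.4 in FLAG-SNAP3 replicate 2 to 90.7 in FLAG-SNAP2 replicate 2. When the 1279 sites were ranked among themselves, FLAG-SNAP2 had 69 higher (5.39%) and 60 lower sites (4.69%). Of the 142 higher sites 63 were also higher on that scale (44.4% of the 142 and 91.3% of the 69). Of the 41 lower sites 37 were also lower on it (90.2% of the 41 and 61.7% of the 60). With the fold enrichment itself, unranked, 26 sites (2.03%) were higher and 75 (5.86%) lower in both FLAG-SNAP2 libraries than in all 6 others, among them 24 of the 142 and 33 of the 41. With fold enrichment divided by the median of the common sites in each library, 35 were higher and 89 lower. Thus 4 of the 41 lower sites, and 79 of the 142 higher sites were not called once the common sites were ranked among themselves.

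**Figure D1:**
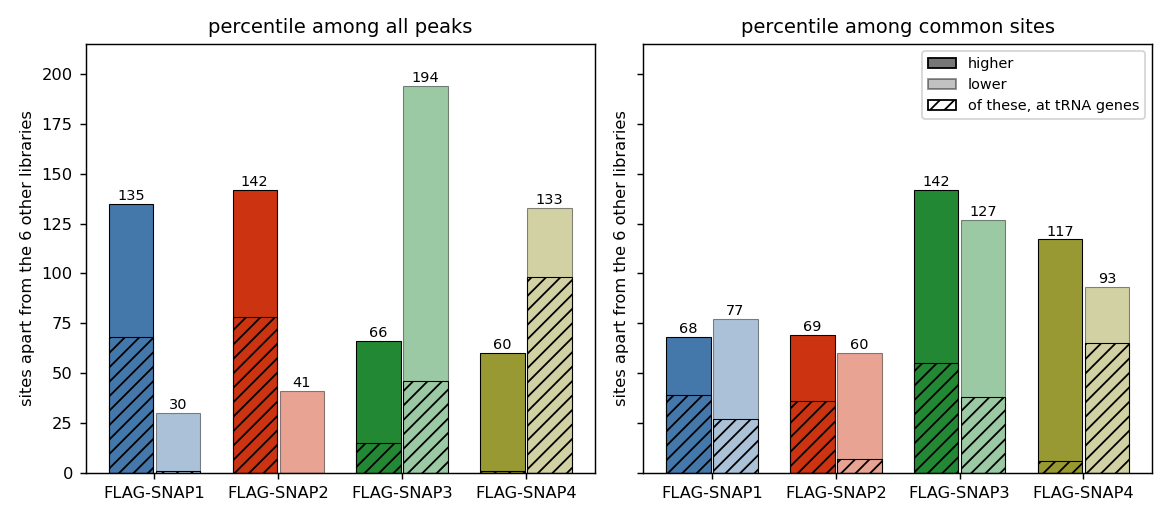
Number of sites that lay above (solid) or below (pale) the 6 libraries of the other factors in both libraries of one TF, for the 4 TFs, out of 1279 sites with a peak in all 8 libraries. Hatching marks the sites at tRNA genes. With percentiles among all peaks (left) FLAG-SNAP2 had 142 higher and 41 lower sites, and with percentiles among the common sites (right) 69 and 60.

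Among the higher sites the gap between the lower FLAG-SNAP2 library and the highest other library had a median of 1.19 percentile points, and it exceeded 10 points at 9 sites, none of them at a tRNA gene. The widest gap, 36.8 points, lay inside the protein-coding gene LOC100795866 (chromosome 20, 24798443 to 24799969, 642 bp from its nearer end), where the percentiles were 64.6 and 69.6 with FLAG-SNAP2, 26.03 and 27.8 with FLAG-SNAP1, 10.7 and 4.34 with FLAG-SNAP3 and 17.2 and 2.39 with FLAG-SNAP4. Its fold enrichment was 4.67 and 4.63 with FLAG-SNAP2 and 2.84 to 3.95 in the others. The summits of the 8 strongest peaks in this region of 1527 bp lay up to 913 bp apart, so the libraries were not all strongest at the same point. A further higher site, nearest to LOC100305726, lay 17688 bp further along the chromosome. The next widest gap was inside the long non-coding RNA (lncRNA) gene LOC102664496 (chromosome 14, 6517711 to 6519589), with percentiles of 28.02 and 34.02 with FLAG-SNAP2, 0.463 and 0.939 with FLAG-SNAP1, 4.55 and 0.358 with FLAG-SNAP3 and 3.82 and 4.58 with FLAG-SNAP4. Here all 8 peaks were in the lower part of their libraries, and the 6 others were near the bottom. LOC100803913 (chromosome 1, 52356392 to 52359330), also an lncRNA gene, had 26.8 and 34.7 with FLAG-SNAP2, 4.90 and 4.42 with FLAG-SNAP1, 3.43 and 3.62 with FLAG-SNAP3 and 14.4 and 13.1 with FLAG-SNAP4. Of the 31 sites nearest to an lncRNA gene, 4 were higher and none lower, a share near the 11.1% over all sites, and the other 2 were at one gene, LOC121172980 on chromosome 10.

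Protein-coding genes made up most of the remaining wide gaps. The site inside LOC100794117 (chromosome 6, 8075252 to 8077240) had percentiles of 47.7 and 43.8 with FLAG-SNAP2, 19.7 and 20.6 with FLAG-SNAP1, 30.3 and 7.69 with FLAG-SNAP3 and 11.8 and 13.2 with FLAG-SNAP4, and the one 565 bp outside LOC100499733 (chromosome 14, 9547971 to 9550335) had 48.5 and 49.8 with FLAG-SNAP2, 35.6 and 20.4 with FLAG-SNAP1, 35.2 and 26.2 with FLAG-SNAP3 and 34.95 and 23.1 with FLAG-SNAP4. Both were broad regions of middling rank, and the FLAG-SNAP2 replicates lay close together. Inside LOC102661689 (chromosome 9, 41861817 to 41862520), a compact site near the top of the lists, the values were 93.1 and 95.7 with FLAG-SNAP2, 27.7 and 80.6 with FLAG-SNAP1, 81.3 and 75.3 with FLAG-SNAP3 and 17.6 and 78.2 with FLAG-SNAP4. There FLAG-SNAP1 replicate 1 and FLAG-SNAP4 replicate 1 were low and the other 4 libraries were nearer to FLAG-SNAP2, with a gap of 11.8 points. The sites inside LOC100306369 (chromosome 10, 1528779 to 1530696) and LOC100807363 (chromosome 12, 35954467 to 35956546) reached 83.1 and 76.9 and 84.9 and 89.02 with FLAG-SNAP2, against 34.8 to 66.3 and 41.97 to 74.7 in the 6 others. The annotation used here lists these genes by locus number, so nothing is said of what they do.

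Of the higher sites nearest to a protein-coding gene, 5 had a gene with a symbol other than a locus number, and they were named after their values were seen. WRKY47, a member of the WRKY family, which binds W-box elements in promoters of defence and stress genes, had a site 201 bp outside the gene (chromosome 9, 5824712 to 5826318) with percentiles of 67.9 and 78.5 with FLAG-SNAP2, 24.2 and 27.3 with FLAG-SNAP1, 12.6 and 51.7 with FLAG-SNAP3 and 32.7 and 42.9 with FLAG-SNAP4. The gap of 16.2 points was the third widest, but the site was no longer apart when the common sites were ranked among themselves. Inside NAC19, a gene of the NAC family to which the SNAP TFs belong, the site (chromosome 13, 9199734 to 9201917) had 75.9 and 91.5 with FLAG-SNAP2, 43.7 and 54.7 with FLAG-SNAP1, 15.1 and 46.9 with FLAG-SNAP3 and 74.6 and 66.04 with FLAG-SNAP4. FLAG-SNAP4 replicate 1 almost reached the lower FLAG-SNAP2 library there, and the call was also lost on the common-site scale. Inside WRKY42 (chromosome 15, 14931729 to 14932918) the values were low in every library, 26.5 and 33.9 with FLAG-SNAP2, 22.8 and 21.2 with FLAG-SNAP1, 21.9 and 5.62 with FLAG-SNAP3 and 5.50 and 9.97 with FLAG-SNAP4, yet the order held on both scales. The other 2 sites nearest to WRKY42 were not apart. ERD15, named for early response to dehydration, had 72.8 and 83.05 with FLAG-SNAP2, 54.1 and 60.2 with FLAG-SNAP1, 52.8 and 29.7 with FLAG-SNAP3 and 55.8 and 64.7 with FLAG-SNAP4 and was higher on both scales. NMHC5, a MADS-box gene, had 88.9 and 88.3 with FLAG-SNAP2 and 52.7 to 86.3 in the others, with FLAG-SNAP3 close below. Its call was lost on the common-site scale, where FLAG-SNAP3 replicate 2 stood at 64.3 and FLAG-SNAP2 at 50.04 and 44.2. Of the 61 genes with a WRKY symbol in the annotation, sites in all 8 libraries lay nearest to such genes 11 times, of which 2 were higher and none lower. For the 41 NAC symbols there were 3 sites, of which 1 was higher, and for the 13 ERF symbols, genes of ethylene response factors, 2 sites and no call. These counts are too small to be set apart from the 11.1% higher and 3.21% lower over all 1279 sites, and on the common-site scale 1 WRKY site and no NAC site was higher. No library had a peak inside or within 2000 bp of NAC11, the only SNAP gene (SNAP4) that could be identified in the annotation.

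**Figure D2:**
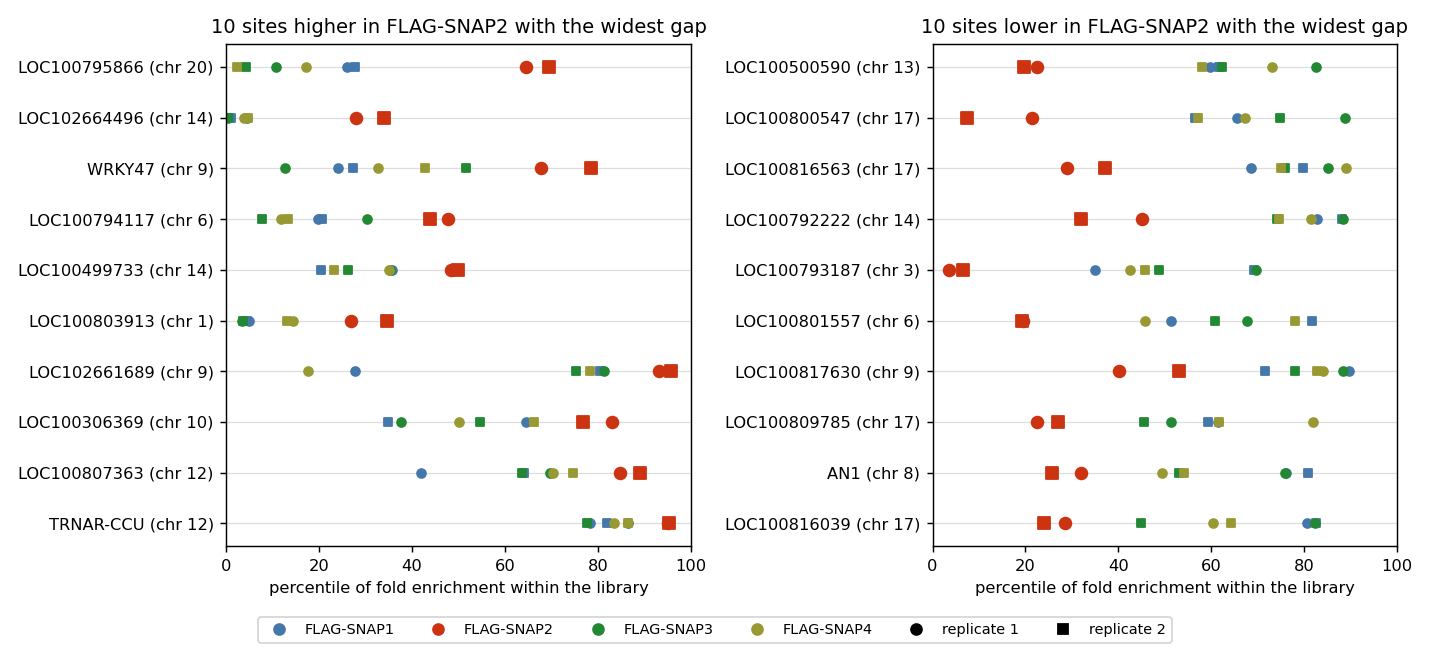
Percentile of fold enrichment within each library (x axis, 0 to 100) at the 10 higher (left) and 10 lower sites (right) with the widest gap among those inside or within 2000 bp of a gene. Large red symbols are FLAG-SNAP2, circles replicate 1 and squares replicate 2. At LOC100795866 both red symbols lie above 64, all others below 28, and at LOC100500590 both lie below 23, all others above 57.

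Genes for small RNAs made up most of the higher sites. Of the 142, 78 (54.9%) lay within 200 bp of a tRNA gene, against 494 of all 1279 sites (38.6%), and none of the 41 lower sites did. Thus 15.8% of the sites at tRNA genes were higher, against 8.15% of the 785 other sites. The 78 sites had median percentiles of 97.05 and 97.4 with FLAG-SNAP2, so near the top of the lists that little room was left for a gap. The gaps at tRNA genes were over 5 points at 7 sites and over 10 at none. The widest was at TRNAR-CCU, an arginine tRNA gene (chromosome 12, 38210002 to 38210494), with percentiles of 95.2 and 95.4 with FLAG-SNAP2, 78.3 and 82.03 with FLAG-SNAP1, 86.5 and 77.8 with FLAG-SNAP3 and 83.6 and 86.5 with FLAG-SNAP4. Both FLAG-SNAP2 libraries were above 95 there and the 6 others below 87. The gap was 8.73 points, and 11.3 with common sites ranked among themselves. Of the 78 sites, 33 were also higher on that scale and 45 were not. Of the 12 sites nearest to a TRNAR-CCU gene, 6 were higher, as were 6 of 16 at TRNAA-UGC (alanine), 5 of 22 at TRNAG-GCC (glycine), 4 of 13 at TRNAF-GAA (phenylalanine) and 3 of 32 at TRNAM-CAU (methionine). None was higher of the 19 at TRNAI-AAU (isoleucine), 13 at TRNAP-UGG (proline), 10 at TRNAH-GUG (histidine) and 6 at TRNAA-CGC (alanine). Copies of a tRNA gene are near-identical, and only uniquely mapped reads were kept, so how reads were shared among copies cannot be told from the peaks. FLAG-SNAP1 also had 68 of its 135 higher sites (50.4%) at tRNA genes, and FLAG-SNAP4 had 98 of its 133 lower sites there (73.7%). On the common-site scale 36 of the 69 higher and 7 of the 60 lower FLAG-SNAP2 sites were at tRNA genes.

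Small nuclear RNAs (snRNAs) are components of the spliceosome, and small nucleolar RNAs (snoRNAs) guide the modification of ribosomal RNA. Of the 8 sites nearest to an snRNA gene, 4 were higher and none lower, and of the 17 nearest to a snoRNA gene, 1 was higher, against 11.1% higher and 3.21% lower over all 1279 sites. The snoRNA site, 44 bp outside the snoRNA gene LOC113001323 (chromosome 3, 35560413 to 35560945), had percentiles of 86.3 and 80.1 with FLAG-SNAP2, 40.8 and 73.8 with FLAG-SNAP1, 59.3 and 19.7 with FLAG-SNAP3 and 64.05 and 43.1 with FLAG-SNAP4. Replicates of the other TFs differed there by more than the gap of 6.27 points. At the snRNA gene LOC113000057 (chromosome 17, 2993267 to 2994856) the values were 90.2 and 80.5 with FLAG-SNAP2, 48.2 and 64.97 with FLAG-SNAP1, 19.3 and 54.5 with FLAG-SNAP3 and 51.6 and 71.96 with FLAG-SNAP4, and at LOC112998422 (chromosome 11, 2976813 to 2977223) 94.4 and 90.9 with FLAG-SNAP2, 85.9 and 83.5 with FLAG-SNAP1, 83.2 and 41.1 with FLAG-SNAP3 and 25.03 and 60.6 with FLAG-SNAP4. The gap at LOC113000057 was 8.51 points, the widest of the 5, and FLAG-SNAP1 was next below FLAG-SNAP2 at LOC112998422. Over all 142 higher sites the nearest other library was one of FLAG-SNAP1 in 70 (49.3%), of FLAG-SNAP3 in 38 and of FLAG-SNAP4 in 34.

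The 100 bp just outside a gene held 28 of the 142 higher sites (19.7%), 21 of them at tRNA genes, against 219 of all 1279 sites (17.1%) and 3 of the 41 lower sites (7.32%). Away from tRNA genes, where all lower sites lay, the share was 53 of 785 (6.75%), near that of the lower sites. It was 7 of 64 (10.9%) for the higher sites there. The 10 widest gaps among the 28 were at the snoRNA gene LOC113001323, at 7 tRNA genes, at the snRNA gene LOC113000647 and at the protein-coding gene LOC100305889, whose site also lay within 200 bp of a tRNA gene. Of the 7, 3 were copies of TRNAF-GAA. The one on chromosome 10 (894779 to 895328) had percentiles of 92.7 and 97.5 with FLAG-SNAP2, 90.7 and 89.8 with FLAG-SNAP1, 63.6 and 57.3 with FLAG-SNAP3 and 74.4 and 80.1 with FLAG-SNAP4, and its site was 3 bp from the gene end. Those on chromosome 2 (882313 to 882903) and chromosome 8 (9752778 to 9753313) had 94.5 and 96.6 and 95.99 and 98.00 with FLAG-SNAP2. At all 3 FLAG-SNAP1 was the nearest other factor and lay 1.56 to 2.01 points below. The other 4 were TRNAA-UGC, TRNAL-AAG, TRNAQ-UUG and TRNAY-GUA, with gaps of 2.62, 2.60, 2.50 and 1.35 points. Farther than 2000 bp from every gene were 11 higher sites (7.75%) and 3 lower sites (7.32%), against 198 of all sites (15.5%). Counted without sites at tRNA genes, the shares were 17.2% of the 64 higher sites and 25.2% of all 785.

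**Figure D3:**
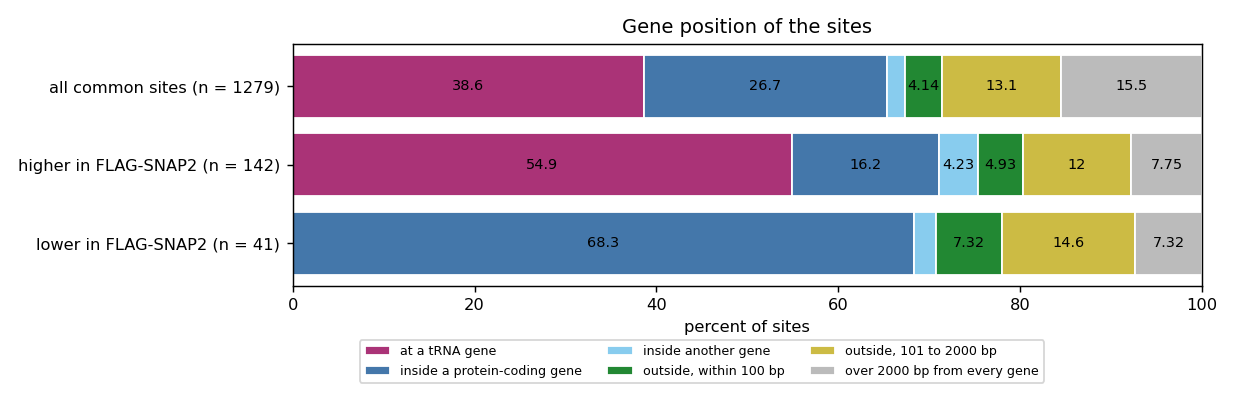
Gene position of all 1279 common sites, the 142 higher and the 41 lower sites, as percent of sites. Sites within 200 bp of a tRNA gene are counted first, the others by the median midpoint of their peaks. The higher sites were at tRNA genes in 54.9%, the lower sites in none, and 68.3% of the lower sites were inside protein-coding genes.

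The 41 lower sites were of another kind. All but 1, at a pseudogene, were nearest to a protein-coding gene, and 28 (68.3%) lay inside one, against 43.6% of the 785 common sites away from tRNA genes and 35.9% of the 64 higher sites away from them. The lower sites of FLAG-SNAP1 went the same way, with 1 of 30 at a tRNA gene and 15 of the 29 others (51.7%) inside a protein-coding gene. Away from tRNA genes that share was 33.1% for FLAG-SNAP3 and 17.1% for FLAG-SNAP4. Inside protein-coding genes and 200 to 700 bp from the nearer end were 21 of the 41 (51.2%), against 26.0% of the 785. Of the 142 higher sites, 103 had a mean FLAG-SNAP2 percentile over 90, which limits their gaps, and 31 of the 41 lower sites had one under 50. Gap sizes of the 2 groups are therefore not directly comparable. At the lower sites the gaps had a median of 5.50 points and 17 were above 10, wider than at the higher sites. The widest, 35.6 points, was 620 bp outside LOC100500590 (chromosome 13, 34287317 to 34287843), with percentiles of 22.4 and 19.6 with FLAG-SNAP2, 59.8 and 61.8 with FLAG-SNAP1, 82.5 and 62.3 with FLAG-SNAP3 and 73.1 and 58.01 with FLAG-SNAP4. There the 8 summits lay within 109 bp, so the libraries were compared at one point, and the fold enrichment was 3.69 and 3.51 with FLAG-SNAP2 against 4.41 to 6.34 in the others. Inside LOC100800547 (chromosome 17, 5035209 to 5036152) the percentiles were 21.4 and 7.45 with FLAG-SNAP2, 65.5 and 56.4 with FLAG-SNAP1, 88.8 and 74.8 with FLAG-SNAP3 and 67.3 and 57.2 with FLAG-SNAP4, and inside LOC100816563 (chromosome 17, 10323762 to 10325423) 28.9 and 37.1 with FLAG-SNAP2, 68.5 and 79.8 with FLAG-SNAP1, 85.3 and 75.9 with FLAG-SNAP3 and 89.1 and 75.1 with FLAG-SNAP4. No other library came within 30 points of FLAG-SNAP2 at either gene.

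The site inside LOC100792222 (chromosome 14, 44378800 to 44380393) had 45.02 and 31.9 with FLAG-SNAP2, 82.8 and 88.1 with FLAG-SNAP1, 88.3 and 74.2 with FLAG-SNAP3 and 81.5 and 74.6 with FLAG-SNAP4, and the one inside LOC100793187 (chromosome 3, 42137084 to 42138677) had 3.54 and 6.53 with FLAG-SNAP2, 35.1 and 69.2 with FLAG-SNAP1, 69.6 and 48.8 with FLAG-SNAP3 and 42.5 and 45.7 with FLAG-SNAP4. FLAG-SNAP2 was thus near the bottom of its lists at the latter, a place where FLAG-SNAP1 and FLAG-SNAP3 were each above 69 in one replicate. LOC100801557, LOC100817630 and LOC100816039 stood at 19.6 and 19.3, 40.2 and 53.02 and 28.5 and 23.9 with FLAG-SNAP2, and at 45.7 to 81.7, 71.7 to 89.7 and 44.8 to 82.6 in the 6 others. AN1 (chromosome 8, 11896898 to 11898818) had 31.98 and 25.6 with FLAG-SNAP2, 76.2 and 80.9 with FLAG-SNAP1, 75.9 and 52.98 with FLAG-SNAP3 and 49.3 and 54.1 with FLAG-SNAP4. The 3 lower sites in the 100 bp outside a gene were at LOC100809785, LOC100804867 and LOC100809455. At LOC100809785 (chromosome 17, 41071493 to 41073453) FLAG-SNAP2 stood at 22.5 and 27.04 and the others at 45.5 to 81.8. At LOC100809455 all 8 libraries were above 93, and the gap was 1.44 points.

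Other lower sites with a named gene were inside SRC2, a cold-regulated gene, inside GSTU47, a glutathione S-transferase of the tau class, and inside SCTF-1. The percentiles were 62.8 and 55.6 with FLAG-SNAP2, 79.3 and 90.3 with FLAG-SNAP1, 88.7 and 91.2 with FLAG-SNAP3 and 79.2 and 66.7 with FLAG-SNAP4 at SRC2, and 27.7 and 22.8 with FLAG-SNAP2, 56.7 and 41.5 with FLAG-SNAP1, 69.7 and 29.04 with FLAG-SNAP3 and 73.9 and 71.4 with FLAG-SNAP4 at GSTU47. At GSTU47 FLAG-SNAP3 replicate 2 came nearest to FLAG-SNAP2 while replicate 1 of the same TF was far above. At SCTF-1 FLAG-SNAP2 stood at 42.6 and 30.8 and the others at 52.9 to 77.3. A site 44695 bp from RAV1, a TF gene with AP2 and B3 DNA-binding domains, had 27.96 and 9.08 with FLAG-SNAP2 against 43.1 to 82.5 and is too far away to be given to that gene. These 4 sites were lower on both scales, whereas the calls at WRKY47, NAC19 and NMHC5 among the higher sites were lost on the common-site scale.

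Lower and higher sites also differed in breadth, which the rule did not use but which was measured on the same peaks and is therefore not tested. The merged region had a median of 1374 bp at the 41 lower sites, 648 bp at the 142 higher sites and 663 bp at all 1279. Of the 41, 25 (61.0%) spanned at least 1000 bp, against 23.7% of all. No lower site was at a tRNA gene, where regions were short (median 601 bp over all 494 such sites). Away from tRNA genes the median was 846.5 bp at the 64 higher sites and 793 bp at all 785. There 42.2% of the higher sites and 37.8% of all spanned at least 1000 bp. At the lower sites of FLAG-SNAP1, FLAG-SNAP3 and FLAG-SNAP4 the median region was 939, 669 and 611 bp. Of these sites 1, 46 and 98 were at tRNA genes. The median width of the strongest peak at the lower sites was 398 and 459 bp with FLAG-SNAP2, against 529 to 668 bp in the 6 others. FLAG-SNAP2 peaks were there the narrowest of the 8 libraries, whereas over all common sites their medians (464 and 501 bp) lay below those of FLAG-SNAP1 and above the other 4. FLAG-SNAP2 was wider than the median of the others at 11 of the 41 lower sites, at 110 of the 142 higher and at 852 of the 1279. Away from tRNA genes it was wider at 41 of the 64 higher sites and at 415 of all 785. In a broad region the strongest peak can sit at a different point in each library. All 8 summits lay within 200 bp of each other at 10 of the 41 lower sites (24.4%), against 102 of the 142 higher (71.8%) and 780 of all (61.0%). Away from tRNA genes they did so at 27 of the 64 higher sites (42.2%) and 327 of all 785 (41.7%). Among higher sites with wide gaps, the summits lay up to 1570 bp apart at LOC100803913, 1130 bp at LOC100807363, 1117 bp at LOC100794117 and 1054 bp at LOC102664496. Among the 780 sites with close summits 102 were higher, 75 of them at tRNA genes, and 10 were lower. Thus at most lower sites the summits of some libraries lay more than 200 bp apart. The mean FLAG-SNAP2 summit lay a median of 134.5 bp from the median summit of the others at the lower sites. Away from tRNA genes this distance was 43.25 bp at the 64 higher sites and 48 bp at all 785. The 10 lower sites with close summits include LOC100500590, LOC100809455, LOC100776101 and LOC547648.

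**Figure D4:**
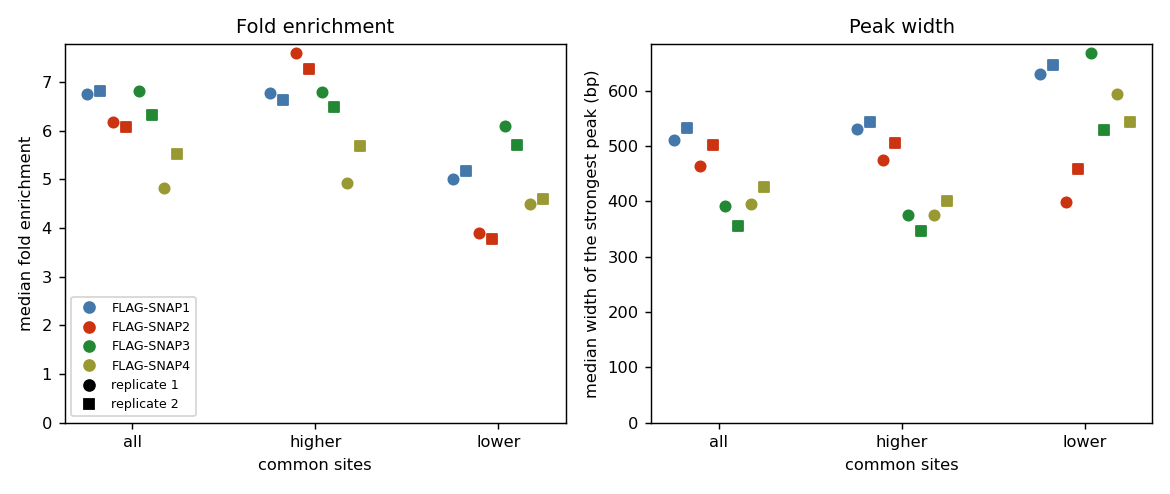
Median fold enrichment (left) and median width in bp of the strongest peak (right) in each of the 8 libraries, over all 1279 common sites, the 142 higher and the 41 lower sites. Circles are replicate 1 and squares replicate 2. At the lower sites the red FLAG-SNAP2 symbols are the lowest of the 8 in fold enrichment (3.90 and 3.77) and in width (398 and 459 bp).

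The rule has no minimum gap, and at its edge the sites differ by fractions of a percentile. Just inside for the higher sites were LOC100791672, TRNAL-AAG on chromosome 18 and TRNAG-UCC on chromosome 16, with gaps of 0.0064, 0.0086 and 0.015 points. Just outside were TRNAK-UUU on chromosome 18, LOC100804183 and TRNAV-CAC on chromosome 2, with gaps of -0.00247, -0.00252 and -0.0068 points. For the lower sites LOC100787293, LOC100809372 and LOC100787509 were just inside, with gaps of 0.083, 0.51 and 0.62 points, and LOC100785260, LOC100814124 and LOC100500373 just outside. A gap above 1 point was found at 80 of the 142 higher and 35 of the 41 lower sites.

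Choosing sites in one replicate and reading them in the other gives values that the choice did not use. FLAG-SNAP2 replicate 1 was highest of the 4 replicate 1 libraries at 360 sites (28.1%), and at 191 of them FLAG-SNAP2 replicate 2 was also highest of its 4 (53.1%, exact binomial 95% interval 47.8 to 58.3%), against 39.7% of all sites. In the other direction replicate 2 was highest at 508 sites, and replicate 1 was also highest at 191 of them (37.6%, interval 33.4 to 41.97%), against 28.1% of all. FLAG-SNAP2 replicate 1 was lowest at 209 sites (16.3%), of which replicate 2 was also lowest at 63 (30.1%), against 12.7% of all. From replicate 2 the share was 63 of 163 (38.7%), against 16.3%. For FLAG-SNAP1 the corresponding shares of highest sites were 49.2% against 32.3% and 44.1% against 28.9%, for FLAG-SNAP3 25.6% against 11.02% and 63.1% against 27.1%, and for FLAG-SNAP4 40.3% against 17.0% and 37.3% against 15.7%. Replicates thus led together more often than over all sites for each of the 4 TFs. On this scale the ratio was larger for the 3 other TFs than for FLAG-SNAP2. With common sites ranked among themselves, the shares from replicate 1 were 38.9% against 22.8% for FLAG-SNAP2 and 41.8% against 24.7% for FLAG-SNAP4, nearly the same ratio. They were 40.5% against 21.6% for FLAG-SNAP1 and 53.7% against 30.6% for FLAG-SNAP3. The replicates of FLAG-SNAP2 also trailed together more often than over all sites, as did those of the 3 other TFs. From replicate 1 the shares of lowest sites were 25.9% against 10.8% for FLAG-SNAP1, 71.8% against 53.1% for FLAG-SNAP3 and 31.4% against 23.4% for FLAG-SNAP4. The intervals cover counting error only and treat neighbouring sites as independent.

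Sites outside the rule give a further view of the difference. FLAG-SNAP2 had 4806 sites with a peak in both its libraries. Of these 1279 (26.6%) had a peak in all 6 others and 437 (9.09%) in none of them. For FLAG-SNAP1, FLAG-SNAP3 and FLAG-SNAP4 the corresponding shares were 22.7, 48.6 and 39.8% in all 6 others. They were 12.1, 7.68 and 3.54% in none. FLAG-SNAP2 thus lay within the range of the other TFs in both. In the opposite case 48 of 21575 merged sites had a peak in all 6 other libraries and in neither FLAG-SNAP2 library. There were 23 such sites for FLAG-SNAP1, 324 for FLAG-SNAP3 and 37 for FLAG-SNAP4. None of the 48 was nearest to a tRNA gene, 47 were nearest to a protein-coding gene, and 37 (77.1%) lay inside a gene, against 53.9% of the 1279 common sites and 46.8% of the 785 of them away from tRNA genes. The strongest was 1144 bp from LOC100781037 (chromosome 6, 15472132 to 15472474), at percentiles of 85.6 to 97.2 and fold enrichments of 7.28 to 9.14 in the 6 others. Next came a site near the pseudogene LOC121173654 on chromosome 16, at 78.9 to 98.8, and one inside LOC100800201 on chromosome 18, at 71.5 to 98.5. These were well up the lists of the other factors, but over the 48 the median of the mean percentile was 41.9, and a missing peak shows only that the peak caller's threshold was not passed.

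The position of all peaks, chosen without regard to the other libraries, can be tested over libraries. An exact permutation test, two-sided, of 2 against 6 libraries has 28 arrangements and cannot give a p below 0.0357, and with the TF as the unit, 1 against 3, it could not go below 0.25. Of the peaks, 10.6 and 10.1% with FLAG-SNAP2 were outside every gene and within 100 bp of a gene end (10.3% ± 0.367, SD, n = 2), against 8.47 to 12.1% in the others (10.1% ± 1.20, SD, n = 6), and the groups overlapped (exact permutation p = 0.75). The midpoint lay inside a gene for 38.8 and 36.01% with FLAG-SNAP2 and for 37.9 to 52.1% in the others, lowest with FLAG-SNAP1 and highest with FLAG-SNAP3 (difference -6.86 percentage points, exact p = 0.179). Peaks were 318 and 335 bp wide at the median with FLAG-SNAP2 and 270 to 371 bp in the others (exact p = 0.643). They were at tRNA genes for 8.28 and 7.1% with FLAG-SNAP2 and for 7.30 to 15.4% in the others (exact p = 0.393), a difference of -2.03 percentage points that turned to 1.44 with the same number of strongest peaks per library. None of the 4 passed, and adjusted over the 4 (Benjamini-Hochberg) the exact p-values were 0.714 to 0.75.

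The share beside gene ends changed when tRNA genes were set aside. Without peaks at tRNA genes it was 8.08 and 7.54% with FLAG-SNAP2 and 5.79 to 6.84% in the others, and with protein-coding genes alone it was 7.56 and 7.17% against 5.60 to 6.56%. Both FLAG-SNAP2 libraries were above all 6 others in either case, and the exact permutation p was 0.0357, the smallest this test can give. The same held for the 3628 strongest peaks of each library (14.1 and 13.5% against 12.1 to 13.3%). With a limit of 50 bp, or with the summit in place of the midpoint, the difference was near 0 and of the other sign (-0.029 and -0.17 percentage points). All of these were alternatives to the main setting, which gave an exact permutation p of 0.75, and their p-values are not adjusted.

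Around the ends of protein-coding genes FLAG-SNAP2 peaks were more often just outside and less often deep inside. This profile, in 20 bins of 100 bp, was examined after the positions of the lower sites had been seen. Both FLAG-SNAP2 libraries were above all 6 others in the first 2 bins outside a gene. The shares were 7.56 and 7.17% against 5.60 to 6.56% at 0 to 100 bp, and 5.82 and 5.77% against 4.49 to 5.25% at 101 to 200 bp. The bin at 0 to 100 bp is the share with protein-coding genes alone given above, not a separate result. They were below all 6 others in 6 bins inside a gene, for example 3.11 and 2.98% against 3.70 to 5.64% at 301 to 400 bp, and 1.56 and 1.28% against 1.93 to 2.75% at 501 to 600 bp. In the other 12 bins the groups overlapped. A pair of wider windows was then set with these bins in view, so their values are a description without a test. Over 301 to 700 bp inside, the share was 7.84 and 7.36% with FLAG-SNAP2 (7.60% ± 0.336, SD, n = 2) and 9.62 to 14.5% in the others (11.6% ± 2.02, SD, n = 6), largest with FLAG-SNAP3 at 14.5 and 13.6%. Within 300 bp outside, it was 17.2 and 16.7% against 13.8 to 15.2%. Without FLAG-SNAP3 replicate 2 the differences were -3.62 percentage points inside and 2.40 outside, in place of -4.02 and 2.41. No bin passed after adjustment over the 20 (smallest Benjamini-Hochberg p = 0.179, exact tests). The annotation used gives no strand, so the start and the end of a gene could not be told apart in this profile.

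**Figure D5:**
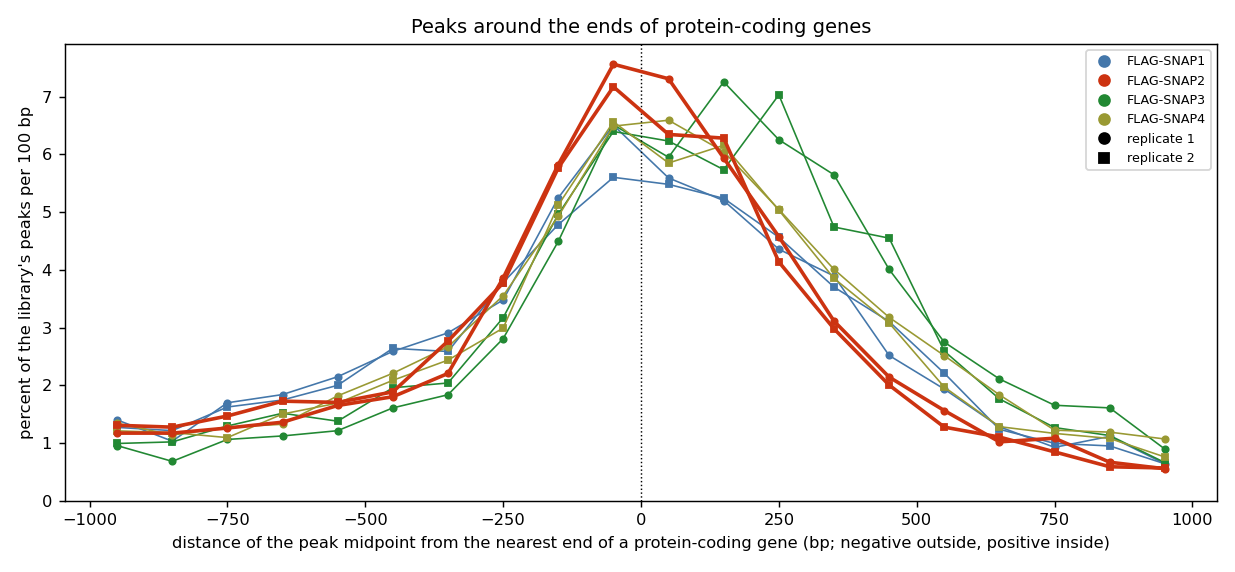
Percent of each library's peaks per 100 bp (y axis) by the distance of the peak midpoint from the nearest end of a protein-coding gene (x axis, bp, negative outside and positive inside the gene). Thick red lines are the FLAG-SNAP2 replicates, thin lines the 6 other libraries. The red lines are the highest of the 8 just outside the gene end (7.56 and 7.17%) and the lowest from 301 to 700 bp inside.

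Over the 1279 common sites the percentiles of the FLAG-SNAP2 replicates had a Spearman correlation of 0.87 across sites, those of FLAG-SNAP2 and FLAG-SNAP1 0.84 to 0.85, and those of FLAG-SNAP2 and the other 4 libraries 0.66 to 0.80. These are descriptions over sites, which share libraries and processing and are not independent. Fold enrichment depends on depth and background, and the sources used here give a minimum read number for all samples but no depth or background for each library, and p-values here measure only the spread between the libraries given.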

How the data were processed

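Peaks came from 8 ChIP-seq libraries, 2 replicates for each of the 4 FLAG-tagged TFs. Per the labels and the methods of the study, the authors trimmed reads (Trim Galore 0.6.6), aligned them to Wm82 a4.v1 (Bowtie2 2.3.4.3), kept uniquely mapped pairs and called peaks in each library separately (MACS2 2.2.7.1, q-value of 0.05). A minimum number of read pairs is stated for all samples together, and the depth of each library and a control library are not given in the sources used here. In the deposited files, the ratio of summit pileup to local background (fold enrichment) is given for each peak, beside its −log10 q-value and peak positions in bp, all by the authors. A −log10 p-value and a score, also deposited, were not used.

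Peaks overlapping by at least 1 bp were merged, and the largest fold enrichment of a site in a library was ranked among all its peaks. A peak was placed by its midpoint, a site by the median midpoint of its strongest peaks, against 58643 genes of RefSeq (Glycine_max_v4.0), 46816 of them protein-coding and 709 tRNA genes. The tRNA genes had a summit within 200 bp for 7.1 to 15.4% of peaks, and for at most 0.073% after a shift of 20000 bp, so both use the same coordinates. RefSeq names are used, and positions are 1-based. The annotation used here gives no strand, gene description or sequence, so gene lists planned by words in descriptions were replaced by gene symbols and gene types, and nodulins, leghemoglobins, transporters, synthetases, proteases, ribosomal proteins, histones, heat shock proteins, ubiquitin ligases and kinases were not counted.

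Named sites were the 10 with the widest gap in each direction within 2000 bp of a gene, up to 10 per direction within 100 bp outside one, the 3 on each side of the rule's edge and members of the gene lists. Sites with a gene symbol other than a locus number, and those missing with FLAG-SNAP2, were named after their values were seen. Members and lists were chosen with earlier results of these data known. Alternatives were other scales, matching rules, peak thresholds and each library left out. The code was tested on simulated data. Python 3.11.15, pandas 2.3.3, numpy 2.4.6, SciPy 1.17.1 and matplotlib 3.10.9 were used.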

Additional observations from a re-analysis of the deposited data

Results flagged for a closer look

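Among the 6 libraries of the other TFs, FLAG-SNAP3 replicate 2 stood apart in its share of peaks at tRNA genes, 15.4%, where the other 5 lay between 7.30 and 9.39%. Its distance from the next value was 0.74 of the whole range, above the 95% limit of Dixon's test for 6 values, which chance passes in about 1 in 20 groups. The same library had the shortest peak list, 3628 peaks. With the 3628 strongest peaks of every library the 6 libraries of the other TFs spanned 14.1 to 17.4%, and FLAG-SNAP3 replicate 2 lay inside that range. FLAG-SNAP2 had 17.4 and 17.5% in that setting. The part of list length in this share was not tested further. In the same setting the difference between FLAG-SNAP2 and the others was 1.44 percentage points (exact permutation p = 0.179) in place of -2.03. Without FLAG-SNAP3 replicate 2 it was -0.909.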

How the results depend on the processing

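The count of 142 higher sites became 69 with percentiles among common sites, 35 with fold enrichment over the median of common sites, 57 with the same number of strongest peaks and 64 without sites at tRNA genes, and 169 to 369 with each library left out. The highest came from leaving out FLAG-SNAP2 replicate 1 (369) or replicate 2 (246), when 1 library had to be apart in place of 2. The count of 41 lower sites became 89 with fold enrichment over the median of common sites, 22 at a q-value of 0.0001, 21 with the same number of strongest peaks, 10 with summits within 200 bp (an alternative chosen after seeing the data), and 46 to 126 with each library left out (126 and 120 without FLAG-SNAP2 replicate 1 or 2, 70 without FLAG-SNAP3 replicate 2). The share beside gene ends, 0.245 percentage points higher with FLAG-SNAP2, was -0.173 by the summit, -0.029 within 50 bp, 1.09 with the same number of strongest peaks, 1.02 with protein-coding genes alone and 1.23 without tRNA peaks (the last 3 at an unadjusted exact permutation p = 0.0357), and -0.073 to 0.647 with each library left out. The difference in the share at tRNA genes, -2.03 percentage points, was 1.44 with the same number of strongest peaks. Of sites chosen in replicate 1, the share led in replicate 2 was 38.9% with percentiles among common sites, in place of 53.1%, and over all sites it was 22.8% in place of 39.7%. The difference inside protein-coding genes at 301 to 700 bp, -4.02 percentage points, was -3.60 at a q-value of 0.0001 and -3.96 with the same number of strongest peaks, given without a test because the window was set with the profile in view. The cause of these shifts was not tested.

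Replicate numbers did not pair libraries of different TFs (correlations of their deviations -0.0082 to 0.036, none over 0.1). With the replicate block, 191 sites were higher and 63 lower. The share within 300 bp outside protein-coding genes differed by 2.41 percentage points, a value that the block cannot change. Without FLAG-SNAP2 replicate 1 or 2 that difference was 2.15 or 2.68. Of 506 values for the named sites under the alternatives, 474 kept the call and 32 lost it, none with a change of sign. Alternatives in which a site was not found are not counted. Leaving out a library, the replicate block and subsets of the sites ask no more than the rule did, so they could hardly lose a call. The count is therefore no measure of how firm the calls are.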

Other observations

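The lncRNA gene LOC121172980 on chromosome 10 had 2 higher sites 6399 bp apart, chosen after their values were seen. The site inside the gene stood at percentiles of 37.8 and 52.4 with FLAG-SNAP2 and at 2.24 to 30.4 in the 6 others, and the one 5826 bp from the gene end stood at 97.2 and 96.5 against 90.8 to 96.1. The snRNA gene LOC113000502 on chromosome 19 had a site at 96.4 and 96.0 with FLAG-SNAP2 and 66.4 to 95.5 in the others, and it was higher on both scales. LOC113000647, an snRNA gene on the same chromosome, had 90.7 and 92.9 against 43.6 to 88.7 and was higher on the scale of all peaks alone. None of the 6 common sites nearest to a miRNA gene was higher or lower, and none of the common sites was nearest to an rRNA gene.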
